A study of Mus musculus with 6 samples.

Results

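The transcripts described here belong to the BCL2 family, the proteins that set whether a cell opens its mitochondria and dies. The 10 genes were taken as the rows whose NCBI Gene number belongs to Bcl2, Bcl2l1, Mcl1, Bcl2a1b, Bcl2a1d, Bcl2l11, Bmf, Bid, Bad or Bak1. They are 10 of the 17567 genes in each library, and all 10 were among the 12209 genes with enough counts to test. RNA was sequenced from immature dendritic cells of the mouse in an H2O2 group and a control group. An immature dendritic cell takes up antigen and has not yet matured to show it to T cells. Both groups came from the marrow of male C57BL/6 mice aged 6 weeks, and no transgene or deletion is named for either. The culture medium held 20 ng/mL GM-CSF, 10 ng/mL IL-4 and 10% serum. Cells were taken on day 6 and enriched on beads for CD11c, the integrin that marks dendritic cells. The H2O2 group was then exposed to 100 µM hydrogen peroxide for 24 h, an oxidant used to model oxidative stress, and the control group carries only the label control. Such cultures are mixed populations, and no label ties a library to a mouse or a culture of its own. The spread behind the p-values is that between these libraries and may be technical.

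Proteins of the family act on each other at the outer mitochondrial membrane. The pro-survival members, BCL2, BCL-xL (from Bcl2l1), MCL1 and A1 (from the Bcl2a1 genes), hold back the pore-forming effectors BAK and BAX. The BH3-only members, BIM (from Bcl2l11), BMF, BID and BAD, bind the pro-survival proteins, and some also switch on the effectors directly. In mouse dendritic cells, BIM is known to limit lifespan, and A1 is known as a survival gene of blood cells that responds to NF-kB.

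GEO's labels list 3 libraries in each group, but the values of H2O2 replicate 3 equalled those of H2O2 replicate 1 in 17567 of 17567 genes. They were counted once, which left 2 H2O2 libraries and 3 control libraries, each with between 16232604 and 16672491 estimated counts. The libraries also parted by transcripts of 4 genes of the Y chromosome. These summed to 96.4 CPM (counts scaled to a common library size) in H2O2 replicate 1 and 106 CPM in control replicate 1. They summed to 0.427 CPM in H2O2 replicate 2, and to 0.12 and 0.308 CPM in control replicates 2 and 3, although the mice were labelled male. Below, set A means H2O2 replicate 1 with control replicate 1, and set B means H2O2 replicate 2 with control replicates 2 and 3. What the sets are is not given in the labels. The CD11c gene Itgax stood at 1496 and 2177 CPM in the H2O2 libraries and at 1474, 2154 and 1940 CPM in the control libraries. The transcript of the protein used for enrichment was thus present in every library. It does not by itself identify the cell type, and other markers are given further below.

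The Bcl2a1 genes are near-identical copies on chromosome 9, and how far their reads can be told apart bears on every value given for them. The coding sequences of Bcl2a1b and Bcl2a1d, both 516 bases in GENCODE M21 transcripts, differed at 6 bases (98.84% identity). Counted from 1 at the A of the start codon, with the base of Bcl2a1b first and that of Bcl2a1d after the position, these were G4T, T48C, A94C, G312A, C381G and T490A. Another copy, Bcl2a1a, differed from Bcl2a1b at 11 bases and from Bcl2a1d at 7. The first 180 coding bases are printed because they hold 7 variable positions, which are in capitals. They lie at chr9:89199360-89199539 on the plus strand for Bcl2a1b, at chr9:88731540-88731719 on the minus strand for Bcl2a1d and at chr9:88957051-88957230 on the plus strand for Bcl2a1a, all in build GRCm38.
Bcl2a1b: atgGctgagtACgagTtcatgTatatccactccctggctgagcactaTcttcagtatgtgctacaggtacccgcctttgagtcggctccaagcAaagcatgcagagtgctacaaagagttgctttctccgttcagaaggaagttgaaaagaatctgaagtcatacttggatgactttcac
Bcl2a1d: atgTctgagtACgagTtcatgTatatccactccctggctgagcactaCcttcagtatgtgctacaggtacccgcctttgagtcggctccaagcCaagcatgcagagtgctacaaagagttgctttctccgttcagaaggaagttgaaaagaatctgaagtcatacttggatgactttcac
Bcl2a1a: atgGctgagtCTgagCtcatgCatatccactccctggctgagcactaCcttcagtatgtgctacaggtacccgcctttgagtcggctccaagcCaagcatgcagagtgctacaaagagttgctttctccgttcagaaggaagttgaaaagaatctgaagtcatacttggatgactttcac
Among the 467 windows of 50 bases in each coding sequence, 52.68% of those of Bcl2a1b were shared letter for letter with another copy. The share was 83.51% for Bcl2a1d and 73.88% for Bcl2a1a. A further gene of this name, Bcl2a1c, was not included in the search. A read inside such a window cannot be placed on one copy from its letters alone, and the deposited counts of Bcl2a1b and Bcl2a1d are not whole numbers. Values of single copies are therefore uncertain.

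RefSeq promoter windows, 250 bases before to 50 bases after an annotated start in build GRCm38.p6, were found for all 10 genes, 16 windows in all. A gene can have several annotated starts. They were searched on both strands for 3 motifs of factors known to act on genes of this kind. The forkhead motif TGTTTAC is in 3.65% of all 32851 windows of this length, and among the members it was in 1 window of Bcl2l11. The antioxidant response core TGACNNNGC is in 12.4% of all windows, and among the members it was in 1 window of Bcl2l1. For AP-1 the loose pattern TGANTCA was used, which takes any base in the middle. It is in 7.81% of all windows, and among the members it was in those of Bcl2a1b and Bcl2a1d. Both of these matches read TGAATCA, with A in the middle, so they match the loose pattern and need not be AP-1 sites. No match overlapped another. The windows of Bcl2l11 and Bcl2l1 with a match are printed because these genes had the largest difference between the sets and the called increase with H2O2, and capitals mark the match. The Bcl2l11 window is chr2:128125788-128126087 on the plus strand, with the match on the opposite strand 227 bases before the start. The Bcl2l1 window is chr2:152828440-152828739 on the minus strand, with the match on the opposite strand 127 bases before that window's start. This start lies inside the gene, which on this strand begins at chr2:152833803. The other windows of Bcl2l1 held no match to the antioxidant response core.
Bcl2l11: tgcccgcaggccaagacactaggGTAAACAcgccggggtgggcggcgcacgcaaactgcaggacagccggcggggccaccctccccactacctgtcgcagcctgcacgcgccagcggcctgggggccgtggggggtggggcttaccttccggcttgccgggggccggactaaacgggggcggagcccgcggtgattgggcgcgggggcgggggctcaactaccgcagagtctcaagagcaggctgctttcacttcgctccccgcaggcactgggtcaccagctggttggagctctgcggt
Bcl2l1: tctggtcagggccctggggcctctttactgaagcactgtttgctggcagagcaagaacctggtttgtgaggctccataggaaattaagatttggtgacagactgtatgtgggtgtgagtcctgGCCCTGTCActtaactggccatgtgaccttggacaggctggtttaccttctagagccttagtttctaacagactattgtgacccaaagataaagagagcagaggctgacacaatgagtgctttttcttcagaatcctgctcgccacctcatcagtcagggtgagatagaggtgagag
These are matches of letters, and no binding was measured.

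Levels can be compared between genes only per length of transcript, so CPM were divided by the kilobases of annotated exon. By the mean of the 3 control libraries, Bcl2a1b was the most abundant member, at 418 CPM per kilobase (359.6 to 448.4). Bcl2a1d at 223 (157 to 264) and Mcl1 at 208 (184 to 247) CPM per kilobase followed, with overlapping ranges. Their order depended on the set, since control replicate 1 had 157 CPM per kilobase of Bcl2a1d and 247 of Mcl1, while control replicates 2 and 3 had 248 and 264 of Bcl2a1d and 191 and 184 of Mcl1. Bak1 stood at 46.0 CPM per kilobase (43.6 to 49.9), apart from its neighbours in the order. Bmf at 21.4 (18.4 to 26.7), Bcl2l1 at 18.9 (12.2 to 22.3) and Bcl2l11 at 15.9 (7.90 to 31.1) CPM per kilobase overlapped, each with the next. In control replicate 1 Bcl2l11 was above Bmf, at 31.1 against 26.7 CPM per kilobase. Bid at 6.50 (5.40 to 7.51), Bcl2 at 5.64 (3.92 to 6.78) and Bad at 5.38 (5.23 to 5.61) CPM per kilobase were lowest, again with each overlapping the next. A1 and MCL1 transcripts thus led the pro-survival members, and BMF and BIM transcripts led the BH3-only members. The range of Bcl2l11 among controls was the widest in ratio.

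Whether these transcripts change under oxidative stress was asked by setting the H2O2 libraries against the control libraries. Bmf was lower and Bcl2l1 was higher in H2O2 libraries, and the other 8 genes did not pass the test. The test was edgeR's quasi-likelihood test with a term for the set, over all 12209 genes, and a gene was called at p of at most 0.05 after Benjamini-Hochberg adjustment. It called 1 of 10 members higher, against 3.93% of all genes called higher. It called 1 of 10 lower, against 4.61% of all genes called lower. With no term for the set, 0 of 10 members were called, as were 0.0% of all genes, and no member had an unadjusted p under 0.05. Both calls therefore rest on comparing libraries within their set. In bulk RNA, fewer cells of a type and less RNA per cell cannot be told apart.

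**Figure D1:**
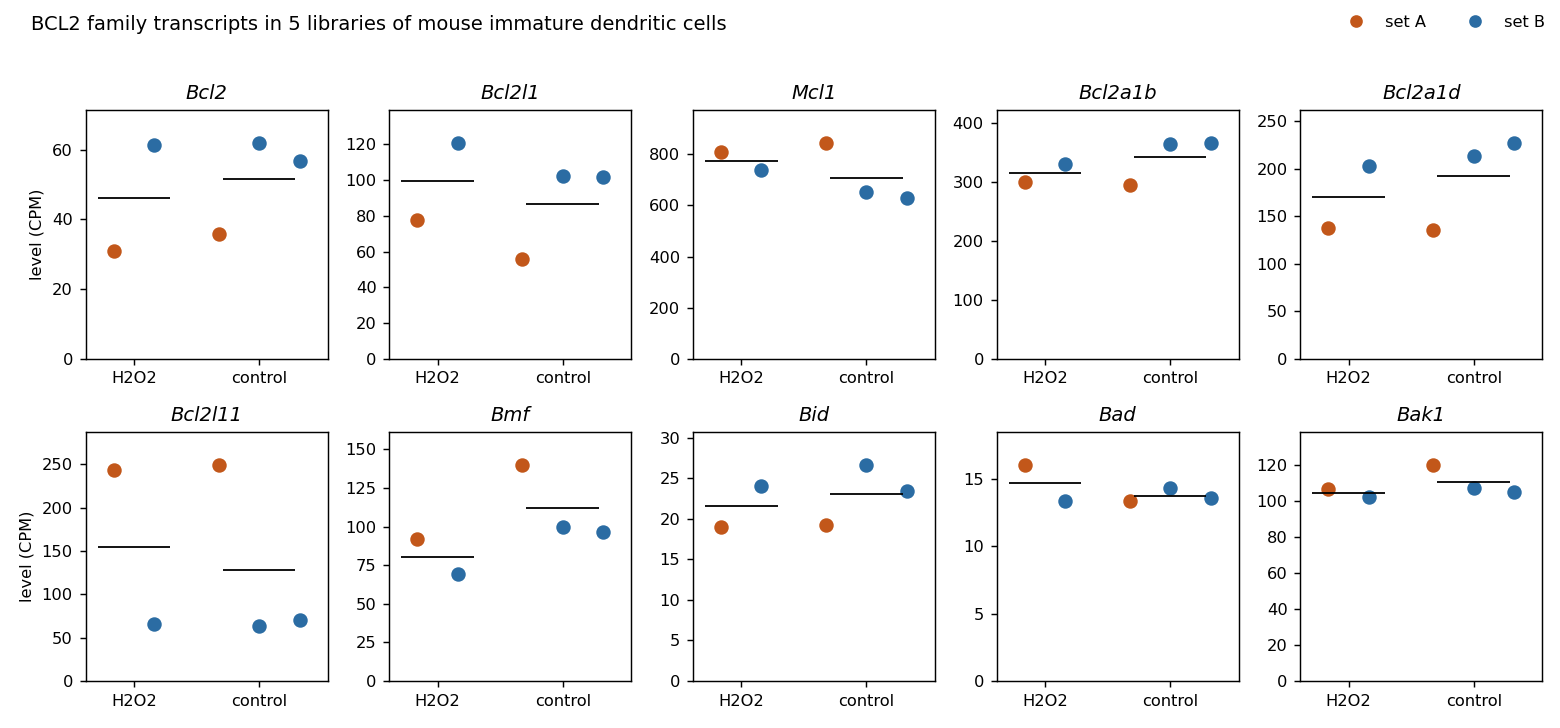
Transcript level in CPM (vertical axes) of each of the 10 genes in each library, with H2O2 libraries left of control libraries and colour marking set A or B. Bmf in both H2O2 libraries (91.8 and 69.1 CPM) lies below all 3 controls, and Bcl2l11 is at 243 and 249 CPM in set A and between 63.4 and 69.8 CPM in set B.

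Bmf, the BH3-only protein that is held on the actin cytoskeleton and released when a cell detaches or is stressed, had 91.8 and 69.1 CPM in the H2O2 libraries and 140.1, 99.9 and 96.8 CPM in the control libraries. Both H2O2 libraries lay below every control library, which held for 1 of 10 members and for 10.7% of all genes. No member had both H2O2 libraries above every control, a pattern of 13.0% of all genes. Bmf averaged 80.4 ± 16.0 CPM with H2O2 (SD, n = 2) and 112 ± 24.1 CPM in controls (SD, n = 3). Within the sets it was 1.47-fold lower (log2 -0.55 ± 0.070 SE, 95% interval -0.72 to -0.39, edgeR adjusted p = 0.0162). In set A the log2 difference was -0.61, and in set B it was -0.51, with -0.53 against control replicate 2 and -0.49 against control replicate 3. Bmf was the only member past 0.5 on the log2 scale within set A, where 15.9% of all genes were, and within set B, where 18.0% were. The call was lost without H2O2 replicate 2, which leaves 1 H2O2 library (adjusted p = 0.0994). Bmf lies at chr2:118528757-118549686 in build GRCm38.p6.

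Bcl2l1, the gene of BCL-xL, had 77.9 and 121 CPM in the H2O2 libraries and 56.0, 102.1 and 101.5 CPM in the control libraries. The groups overlapped, because set A was lower than set B, and within each set the H2O2 library was above its controls. The mean was 99.4 ± 30.5 CPM with H2O2 (SD, n = 2) and 86.6 ± 26.4 CPM in controls (SD, n = 3). Within the sets Bcl2l1 was 1.27-fold higher (log2 0.34 ± 0.078 SE, 95% interval 0.16 to 0.53, edgeR adjusted p = 0.0454). The log2 difference was 0.47 in set A (exact binomial interval of 95% from 0.35 to 0.60, counting error only) and 0.25 in set B. The adjusted p lay just under the threshold, and the call was lost in 12 of 15 other settings, with the increase between 0.19 and 0.47 in all 15. The adjusted p was 0.0557 without H2O2 replicate 1, 0.118 without H2O2 replicate 2, 0.0951 without control replicate 2 and 0.146 without control replicate 3. Bcl2l1 lies at chr2:152758732-152833803.

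**Figure D2:**
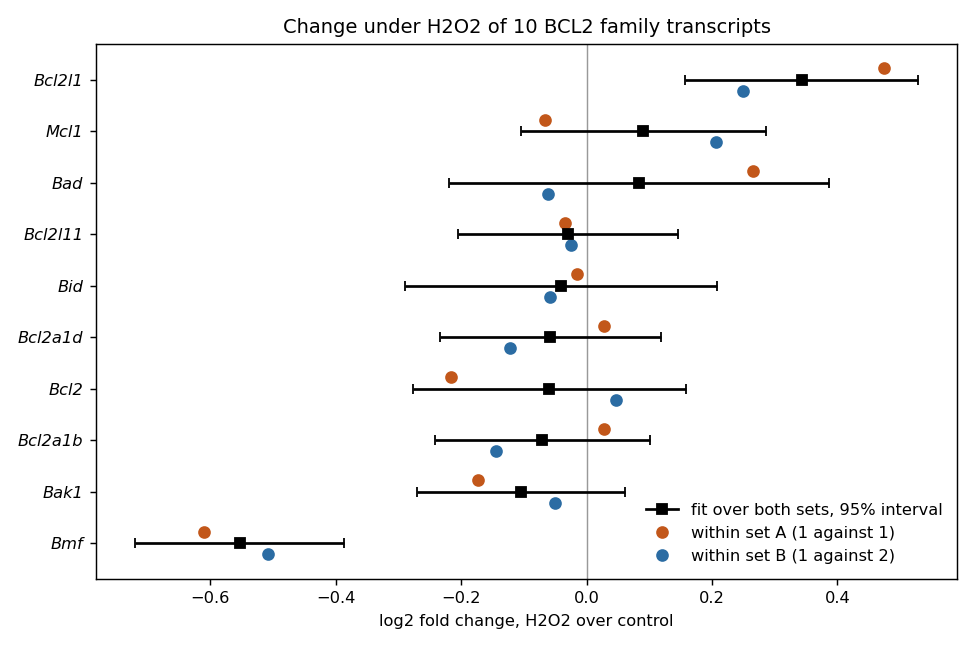
Log2 fold change of H2O2 over control for each of the 10 genes (horizontal axis), as the fitted value with its 95% interval. The interval of Bmf (-0.72 to -0.39) lies below 0 and that of Bcl2l1 (0.16 to 0.53) above it, while the other 8 cross 0.

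The other pro-survival transcripts did not pass the test. Mcl1 (chr3:95656944-95663179), whose protein is short-lived and depends on steady synthesis, had 808 and 739.9 CPM with H2O2 and 846, 652 and 630.3 CPM in controls (log2 0.09, adjusted p = 0.517). Bcl2 (chr1:106538176-106714290), the founding member of the family, had 30.9 and 61.4 CPM with H2O2 and 35.9, 62.1 and 56.9 CPM in controls. In both genes the libraries of set A lay apart from those of set B. The log2 change of Bcl2 was -0.06 with a 95% interval of -0.28 to 0.16 (adjusted p = 0.718). Bcl2a1b (chr9:89199273-89207838) had 299.6 and 330.4 CPM with H2O2 and 293.8, 364.3 and 366.4 CPM in controls (log2 -0.07, adjusted p = 0.572). Bcl2a1d (chr9:88723288-88731850) had 138 and 203 CPM with H2O2 and 135, 214 and 227 CPM in controls (log2 -0.06, adjusted p = 0.657). The groups overlapped in all 4 genes. Summed over the 5 pro-survival members, the level was 1354 and 1455 CPM with H2O2 and 1367, 1394 and 1382 CPM in controls. Mcl1 was the largest part of each sum, and these CPM were not divided by length.

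Of the BH3-only transcripts, Bmf alone passed. Bcl2l11 (chr2:128126038-128162547) had 243 and 65.5 CPM with H2O2 and 249, 63.4 and 69.8 CPM in controls, so that each H2O2 library matched its own set closely. Its log2 change was -0.03 with a 95% interval of -0.21 to 0.15 (adjusted p = 0.834). Bid (chr6:120893119-120917062), whose protein is cut by caspase-8 and carries a death receptor's signal to mitochondria, had 19.0 and 24.0 CPM with H2O2 and 19.2, 26.6 and 23.4 CPM in controls (log2 -0.04, adjusted p = 0.838). Bad (chr19:6941861-6951905), whose protein is kept inactive by phosphorylation and 14-3-3 proteins, had 16.1 and 13.4 CPM with H2O2 and 13.4, 14.4 and 13.6 CPM in controls (log2 0.08, adjusted p = 0.715). Both were low, with 207 to 441 estimated counts in a library, and their intervals were the widest. That of Bad ran from -0.22 to 0.39 and that of Bid from -0.29 to 0.21. Summed over the 4 BH3-only members, the level was 370.2 and 172 CPM with H2O2 and 422, 204.4 and 203.6 CPM in controls. Bmf carried nearly all of the difference within the sets. Without it, the other 3 summed to 278 and 103 CPM with H2O2 and 282, 104 and 107 CPM in controls, and no test was made on these sums.

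Bak1 (chr17:27019812-27028627), the effector that sits in the outer mitochondrial membrane, had 106 and 102 CPM with H2O2 and 120.1, 107 and 105 CPM in controls. The log2 change was -0.10 with a 95% interval of -0.27 to 0.06 (adjusted p = 0.380). Bax, the other effector and no member here, had 79.0 and 91.4 CPM with H2O2 and 62.3, 85.8 and 83.2 CPM in controls (log2 0.21, adjusted p = 0.145). Neither effector transcript passed the test.

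Across the 10 members the median log2 change was -0.05, beside 0.01 over all genes tested. The sign was the same in both sets for 5 members. Lower in both sets were 4 of 10 (Bcl2l11, Bmf, Bid and Bak1), against 32.5% of all genes, and higher in both was 1 of 10 (Bcl2l1), against 33.0%. For the remaining 5, none of which was called, the sign of the difference was opposite in the sets, against 34.5% of all genes. Signs in set B were taken against the mean of its 2 controls. For Bcl2, and for Bcl2l11 and Bid among those lower in both sets, the H2O2 library of set B lay between these controls. The difference between the sets in the response was tested as an interaction term, with 1 residual degree of freedom. It called 0 of 10 members, none of which had an unadjusted p under 0.05, against 0.0164% of all genes (2 of 12209).

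The fitted difference between the sets was larger than the fitted H2O2 change for 8 of the 10 members, against 64.0% of all genes. For Bak1, 1 of the 8, neither was called. The same fit called 3 of 10 members higher in set A (Mcl1, Bcl2l11 and Bmf), against 19.1% of all genes. It called 5 of 10 lower in set A (Bcl2, Bcl2l1, Bcl2a1b, Bcl2a1d and Bid), against 16.9% of all genes. Of the pro-survival members 4 of 5 were thus lower in set A, and Mcl1 was higher. Among the 4 are Bcl2a1b and Bcl2a1d, near-identical copies whose single values are uncertain. Of the BH3-only members 2 of 4 were higher, and Bid was lower. Bak1 and Bad were not called.

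The largest set difference was that of Bcl2l11. Its level in set A was 3.73 times that in set B (log2 1.90 ± 0.073 SE, edgeR adjusted p = 2.57e-05). A set difference at least as large, in either direction, was found in 344 of 12209 genes (2.82%). Bmf was 1.38-fold higher in set A (log2 0.47 ± 0.069 SE, adjusted p = 0.00272), and Mcl1 1.22-fold higher (log2 0.28 ± 0.082 SE, adjusted p = 0.0344). Bcl2 was 1.79-fold lower in set A (log2 -0.84 ± 0.094 SE, adjusted p = 0.000855) and Bcl2l1 1.70-fold lower (log2 -0.76 ± 0.081 SE, adjusted p = 0.000694). Bcl2a1d was 1.56-fold lower in set A (adjusted p = 0.00107), Bid 1.29-fold lower (adjusted p = 0.0346) and Bcl2a1b 1.18-fold lower (adjusted p = 0.0397). The calls of Mcl1, Bcl2a1b and Bid were each lost in some other settings. That of Mcl1 was lost in 3 of 9 other settings, with the log2 difference at 0.12 without control replicate 1, 0.28 without control replicate 2 and 0.24 without control replicate 3. That of Bcl2a1b was lost in 5 of 9, with the log2 difference at -0.15 without control replicate 1, -0.23 without control replicate 2 and -0.24 without control replicate 3, and at -0.16 with library totals. That of Bid was lost in 7 of 9, among them without each of the 5 libraries, with the log2 difference between -0.42 and -0.29 in all 9. The libraries of set A and set B did not overlap for 7 of the 10 members, against 51.9% of all genes. The sets were defined from the libraries themselves, after the data were seen, and what else differs between them was not tested.

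**Figure D3:**
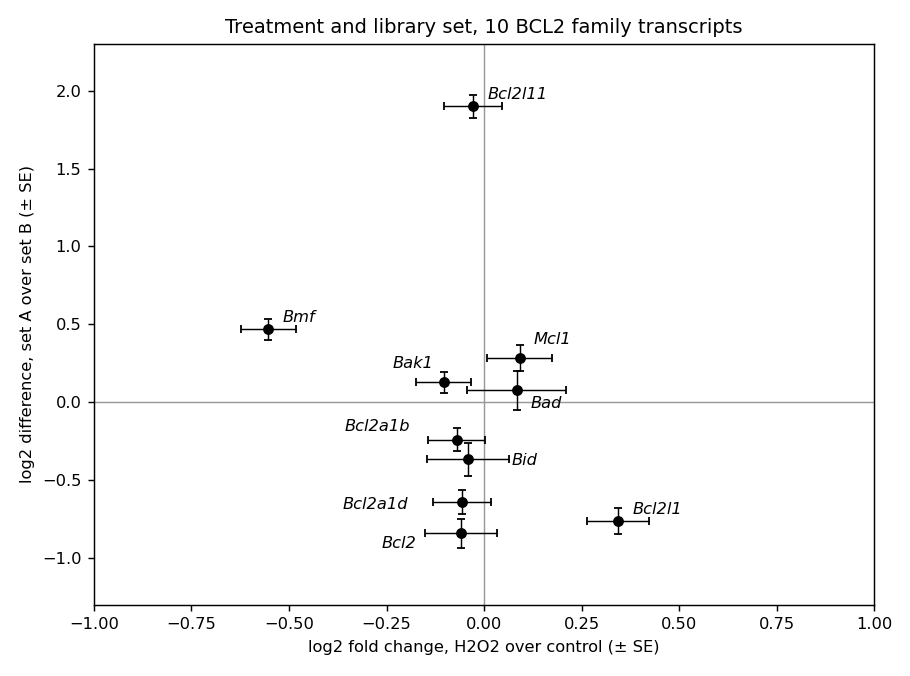
Log2 fold change of H2O2 over control (horizontal axis) against the log2 difference of set A over set B (vertical axis) for the 10 genes, with bars of 1 standard error. Bcl2l11 stands alone at 1.90 on the set axis with a treatment change of -0.03, and Bmf is the member farthest from 0 on the treatment axis, at -0.55.

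Ratios of members within a library are given for 3 pairs of BH3-only and pro-survival genes, 2 of them over the called gene Bcl2l1. As ratios of counts they compare libraries, and not the levels of the genes in a pair. Bmf per Bcl2l1, as a ratio of counts within a library, was 1.18 in H2O2 replicate 1 and 2.5 in control replicate 1. In set B it was 0.571 in the H2O2 library and 0.979 and 0.953 in the controls. The ratio was thus lower with H2O2 in both sets, and both set A libraries exceeded every set B library. Bcl2l11 per Bcl2l1 was 3.13 in H2O2 replicate 1 and 4.45 in control replicate 1. In set B it was 0.541 in the H2O2 library and 0.621 and 0.688 in the controls. Per kilobase of exon, this ratio was 1.79 in H2O2 replicate 1 and 2.54 in control replicate 1. The set B values per kilobase were 0.309 in the H2O2 library and 0.355 and 0.393 in the controls. Bcl2l11 per Mcl1 was 0.301 in H2O2 replicate 1 and 0.295 in control replicate 1, and in set B 0.0885 in the H2O2 library and 0.0974 and 0.111 in the controls. With H2O2 this ratio was thus nearly the same in set A and lower than in both controls in set B. These pairs were chosen with the values of their genes known, and the ratios are given without a test.

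The A1 copies divided their counts differently in the sets. Of the counts of Bcl2a1a, Bcl2a1b and Bcl2a1d together, Bcl2a1d held 26.1% in H2O2 replicate 1 and 26.2% in control replicate 1. In set B it held 31.7% in the H2O2 library and 30.5% and 31.8% in the controls. The Wilson intervals of 95% ran from 25.2% to 27.0% and from 25.3% to 27.1% in set A, below the lowest bound of 29.7% in set B. Bcl2a1b held 56.6% and 51.7% in the H2O2 libraries and 56.8%, 52.1% and 51.2% in the controls. Bcl2a1a held between 16.6% and 17.4% in every library. Bcl2a1c, not part of these shares, had 8.08 and 10.6 CPM with H2O2 and 9.47, 15.6 and 10.7 CPM in controls. The intervals cover counting error only. Since most windows of Bcl2a1d are shared with another copy, as the printed sequences show, the shares depend on how the authors' counter divided shared reads, which is not given in the sources used here.

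**Figure D4:**
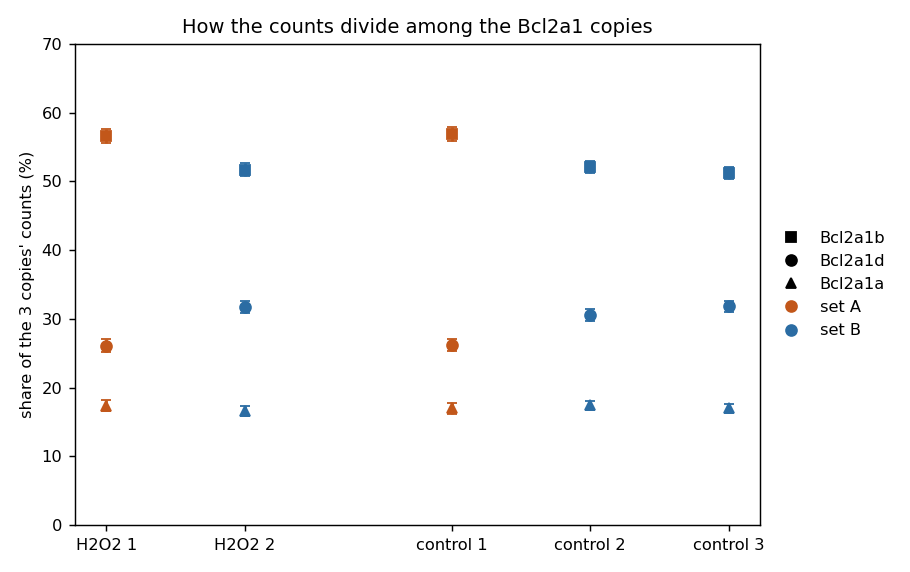
Share of the summed counts of Bcl2a1a, Bcl2a1b and Bcl2a1d (vertical axis, %) held by each copy in each library, with H2O2 libraries left and Wilson intervals of 95% as bars. The Bcl2a1d share is about 26% in both set A libraries and between 30.5% and 31.8% in the 3 set B libraries.

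The genes most like each called member were found by the root mean square distance of centred log2 CPM over the 5 libraries, among the 8692 genes that averaged 10 CPM or more. Nearest to Bcl2l1 were the glucose transporter gene Slc2a1 (distance 0.0341), Irf2bpl (0.0388) and Prdx6 (0.0473), a peroxiredoxin that reduces peroxides. With H2O2, edgeR called Slc2a1 (adjusted p = 0.0380) but not Irf2bpl (adjusted p = 0.0781) or Prdx6 (adjusted p = 0.0710). Their log2 set differences, -0.81 to -0.74, were larger in size than their log2 H2O2 changes, 0.27 to 0.33. Slc2a1 had 100.3 and 163 CPM with H2O2 and 76.8, 137 and 132 CPM in controls. Nearest to Bmf were Ppdpf (0.0605), Niban1 (0.0639) and Gm35498 (0.0722). Niban1 had 176 and 126 CPM with H2O2 and 246, 168 and 175 CPM in controls. Closest among the members themselves were Bcl2a1b and Bid, at 0.0914. With 5 libraries, likeness of this kind is a description.

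Of 16 other genes of the BCL2 family, 11 were tested, 1 rose, none fell and their median log2 change was 0.03. For this list and those that follow, rose and fell mean called by the test. Over all genes 3.93% were called higher and 4.61% lower. The gene that rose was Bnip3l, whose protein NIX marks mitochondria for autophagy. Its mean CPM over all 5 libraries was the highest of the list, while over the controls alone that of Pmaip1 was higher. Bnip3l had 245 and 227 CPM with H2O2 and 199, 167 and 162 CPM in controls (log2 0.40 ± 0.071 SE, adjusted p = 0.0260). Pmaip1, the gene of the BH3-only protein NOXA, had 201 and 186 CPM with H2O2 and 208, 185 and 198 CPM in controls (log2 -0.05, adjusted p = 0.703). Bcl2l15, Bok, Bik and Hrk were below the count minimum, and no row carried the symbol Bcl2l10.

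Of 20 genes of the apoptosome and the caspases, none rose and 2 fell, with a median log2 change of -0.07. Htra2, a mitochondrial protease that blocks caspase inhibitors once released, had 33.4 and 35.4 CPM with H2O2 and 43.6, 45.9 and 45.0 CPM in controls (log2 -0.37 ± 0.075 SE, adjusted p = 0.0331). Birc5, the gene of survivin, which is needed in mitosis and is also in the list of cycling genes, had 9.16 and 4.60 CPM with H2O2 and 31.5, 9.18 and 19.0 CPM in controls (log2 -1.70 ± 0.31 SE, adjusted p = 0.0267). The gene with the highest CPM, the mitochondrial channel gene Vdac2, had 302 and 342 CPM with H2O2 and 313, 349 and 315 CPM in controls (adjusted p = 0.991).

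Of 15 death receptor and necroptosis genes, 14 were tested, 1 rose, none fell and the median log2 change was 0.12. Mlkl, the executioner of necroptosis, rose to 27.3 and 41.6 CPM with H2O2, against 20.1, 32.4 and 30.1 CPM in controls (log2 0.42 ± 0.086 SE, adjusted p = 0.0335). The groups overlapped, and each H2O2 library was above the controls of its set. Tnfrsf1b, a receptor for tumour necrosis factor and the gene with the highest CPM of the list, had 573 and 287 CPM with H2O2 and 511, 247 and 207 CPM in controls (log2 0.26, adjusted p = 0.129). Of 26 genes that regulate the members, none rose and 1 fell, with a median log2 change of -0.05. This was Relb, an NF-kB subunit of dendritic cells, with 80.6 and 36.9 CPM with H2O2 and 112, 46.6 and 44.2 CPM in controls (log2 -0.38 ± 0.079 SE, adjusted p = 0.0354). The gene with the highest CPM, the 14-3-3 gene Ywhaz, had 547 and 556 CPM with H2O2 and 519, 521 and 484 CPM in controls (adjusted p = 0.332).

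**Figure D5:**
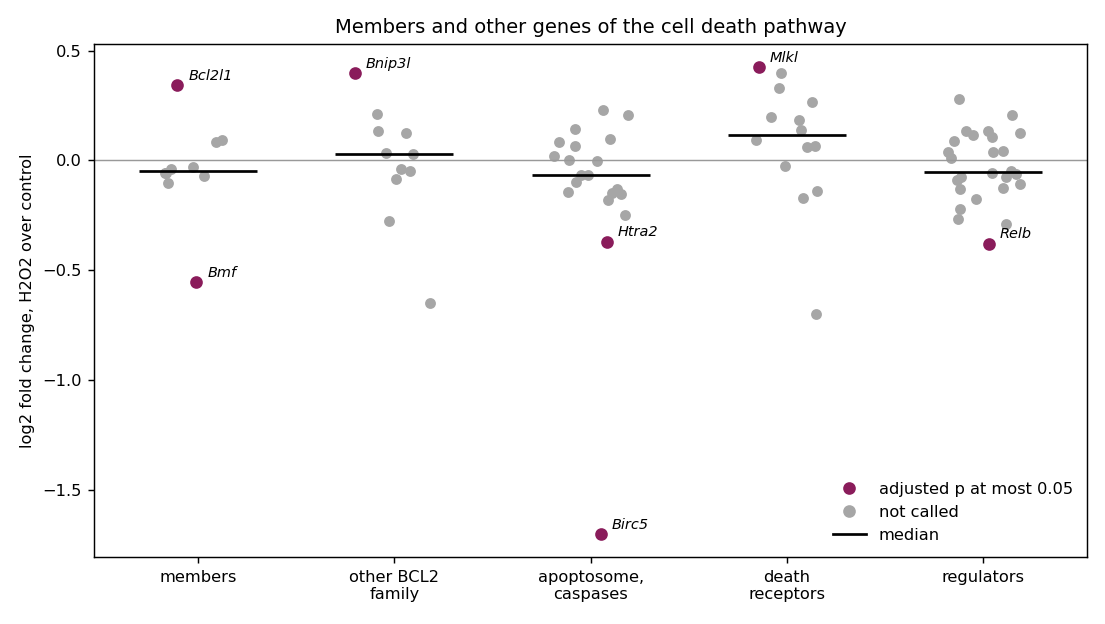
Log2 fold change of H2O2 over control (vertical axis) for every tested gene of the members and of 4 other lists of the cell death pathway, with called genes coloured and named and a line at each median. The 5 medians lie between -0.07 and 0.12, and Birc5 at -1.70 is far below the other called genes.

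Markers of cell types and states moved with treatment and set as well. Over all genes the fit called 3.93% higher and 4.61% lower with H2O2, and 19.1% higher and 16.9% lower in set A. Of 12 dendritic cell markers 7 fell with H2O2, while 6 were higher and 2 lower in set A. The list summed to 6518 and 6379 CPM with H2O2 and 7895, 7668 and 7105 CPM in controls. All 12 cycling genes fell, with sums of 415 and 198 CPM with H2O2 and 1294, 368 and 676 CPM in controls, and all 12 were higher in set A. Of 8 mast cell and basophil markers 5 fell with H2O2 and 7 were lower in set A, and the list summed to 11.3 and 26.9 CPM with H2O2 and 34.8, 59.4 and 85.5 CPM in controls. Of 11 tested neutrophil markers 1 rose, 3 fell and 9 were lower in set A, with sums of 964 and 1819 CPM with H2O2 and 557, 1148 and 1312 CPM in controls. Mmp8, the marker that rose, made up most of each sum. It had 845 and 1236 CPM with H2O2 and 432, 784 and 697 CPM in controls, while the median log2 change of the list was -0.60. Of 10 tested macrophage or monocyte markers 1 rose and 2 fell, while 5 were higher and 2 lower in set A. This list summed to 1395 and 1191 CPM with H2O2 and 1151, 1005 and 960.4 CPM in controls. Of 4 tested eosinophil markers 1 rose and 3 fell, while 1 was higher and 3 were lower in set A. Sums for this list were 32.3 and 24.7 CPM with H2O2 and 58.5, 35.2 and 32.3 CPM in controls. The 8 lymphocyte markers summed to 1.54 and 2.01 CPM with H2O2 and 1.69, 4.47 and 4.15 CPM in controls, near 0 throughout. The part of these markers in the values of Bmf, Bcl2l1 and Bcl2l11 was not tested.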

How the data were processed

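RNA of 6 labelled samples (3 H2O2, 3 control) was read on DNA nanoballs. The deposited files hold estimated counts for each gene without normalization, per the file headers, and 8.38% to 9.03% of a library's values were not whole. HISAT, Bowtie2 and GRCm38.p6 are named without roles, per the submitters' processing notes. Not given in the sources used here are the counter, its annotation and its strand setting, so overlapping genes may share reads. Gene numbers were matched to a RefSeq table of that build (17520 rows, 99.73%).

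The copied H2O2 library was counted once. Counts were rounded, filtered with edgeR's filterByExpr (minimum count 10, minimum total 15) and scaled by TMM, and CPM use the scaled totals. Genes were tested with edgeR's quasi-likelihood test (edgeR 4.0.16, limma 3.58.1, DESeq2 1.42.0, R 4.3.3) with terms for H2O2 and for the set, which left 2 residual degrees of freedom. Set A libraries held at least 100 counts of 4 Y-linked genes. Standard errors are the absolute log2 change over the square root of F, and intervals use the moderated degrees of freedom. The script was tested on simulated data. Other settings left out the set term, used the replicate number as a block, DESeq2, limma-voom, other scaling, no count filter, the copy as a library, or left out each library in turn.

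The members, the lists and the set term were chosen with earlier results of these data known. Named genes are all members, and in each other list of the pathway at most 3 called genes and the gene with the highest CPM; the 3 nearest genes of each called member were added. Bax and Pmaip1 were named after their values were seen. The Bcl2a1 sequences are from GENCODE M21 and the promoters from RefSeq.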

Additional observations from a re-analysis of the deposited data

Results flagged for a closer look

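For 4 members the H2O2 library of set A stood on one side of its control and the H2O2 library of set B on the other side of both of its controls. With set B taken against the mean of its controls, the signs were opposite for 34.5% of all genes. The share of all genes with the stricter pattern was not counted. The log2 change in set A minus that in set B was -0.27 for Mcl1, which was lower with H2O2 in set A (-0.07) and higher in set B (0.18 and 0.23 against the 2 controls). It was 0.17 for Bcl2a1b, 0.15 for Bcl2a1d and 0.33 for Bad, for which the H2O2 library had the higher value in set A and the lower in set B. The exact binomial intervals of counting error crossed 0 for Bcl2a1b (-0.028 to 0.085) and Bcl2a1d (-0.055 to 0.11) in set A, and for Bad in set B (-0.38 to 0.17 and -0.30 to 0.26). The interaction test of edgeR called none of the 4, with adjusted p = 0.383 for Mcl1, 0.529 for Bcl2a1b, 0.617 for Bcl2a1d and 0.592 for Bad.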

How the results depend on the processing

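Over all genes, 480 were called higher and 563 lower (46.0% higher). The counts higher and lower were 0 and 0 with no set term (853 genes at an unadjusted p under 0.05), 220 and 334 with the replicate block, 60 and 42 with no count filter, and 1320 and 1500 with the copied file as a library. DESeq2 without the term gave 66 and 39, limma-voom without it 0 and 0, both added after the data were seen. Scaling by library totals gave 910 lower and a split of 29.7% higher. Leaving out 1 library gave between 1 and 1248 higher and between 0 and 816 lower, the lowest of each without H2O2 replicate 2 and the highest without control replicate 1. Members called higher were 0 with no set term in edgeR, DESeq2 or limma-voom, with the replicate block, DESeq2 with the set term, RLE factors, library totals and no count filter, and between 0 and 1 with a library left out. Members called lower were 0 with no set term in edgeR, DESeq2 or limma-voom, and between 0 and 1 with a library left out. Bcl2l1 kept its call with limma-voom and the set term, with the copied file, which repeats H2O2 replicate 1, and without control replicate 1. Leaving out control replicate 1 leaves set A with no control, so the change of 0.24 found there comes from set B alone. Bmf lost it in 4 of 15 settings, the 3 without the set term and the one without H2O2 replicate 2, with a change between -0.62 and -0.47 in all 15. With the replicate block, Bcl2l1 changed by 0.36 (adjusted p = 0.107) and Bmf by -0.57 (adjusted p = 0.0155). Deviations of same-numbered libraries correlated at 0.795 and 0.694, but that of H2O2 replicate 2 with control replicate 3 was 0.629, and 2 pairs do not show that numbers pair libraries. The log2 change of Bcl2l11 turned to 0.28 with no set term, 0.0038 with the replicate block, 0.26 with DESeq2 and 0.29 with limma-voom without the term. With 1 library left out the change ranged from -0.22 to 0.048 for Bcl2, -0.068 to 0.21 for Mcl1, -0.15 to 0.026 for Bcl2a1b, -0.13 to 0.026 for Bcl2a1d, -0.093 to 0.010 for Bid and -0.069 to 0.26 for Bad, and the set difference of Bad from -0.076 to 0.26. The set difference of Bcl2l11 kept its call in 9 of 9 settings (1.86 to 1.98), while that of Mcl1 lost it in 3, of Bcl2a1b in 5 and of Bid in 7. No scaling turned the direction of a member. The causes were not tested. Depth limits Bad and Bid most among the members, with 207 to 441 estimated counts in a library.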

Other observations

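Other genes of the pathway differed between the sets by more than most members did, and they were picked after their values were seen. Bcl2l14, a BCL2 relative, had 12.5 CPM in H2O2 replicate 1 and 17.7 CPM in control replicate 1 of set A. In set B it had 1.17 CPM in the H2O2 library and 2.42 and 2.26 CPM in the controls (log2 set difference 3.07, edgeR adjusted p = 6.67e-05). Tnf, the gene of tumour necrosis factor, ran the other way. It had 22.6 and 13.8 CPM in the H2O2 and control libraries of set A, against 70.6 CPM in the H2O2 library and 75.5 and 74.9 CPM in the controls of set B (log2 set difference -2.07, adjusted p = 0.0003). The NF-kB subunit genes Rel (1.21) and Relb (1.23) were higher in set A on the log2 scale.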
